A study of Rattus norvegicus with 21 samples.

Results

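The integrated stress response is the programme by which cells slow protein synthesis and switch on genes for amino acid supply when protein folding, heme, amino acids or oxidants go wrong. A list of 36 rat genes of this programme was followed in polyadenylated RNA of an insulin-secreting cell line: translation factor eIF2 and its kinases, the transcription factors downstream of them, feedback and growth regulators, enzymes of amino acid and one-carbon metabolism, amino acid transporters and 1 lipoprotein receptor. Genes were taken from the deposited table by symbol if their mean over the 9 mRNA libraries was at least 10 normalized counts, the minimum for testing. Of the 36 genes, 33 passed, among 14410 of 32750 genes in the table.

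In this pathway a stress-activated kinase phosphorylates the alpha subunit of eIF2, which lowers general translation and lets the mRNA of the transcription factor ATF4 be translated. ATF4 pairs with C/EBP proteins on composite promoter elements and induces genes that import and make amino acids, load tRNAs and, through phosphatase subunits and the pseudokinase TRIB3, damp the signal again. Beta cells synthesise insulin in large amounts and are known to be sensitive to defects of this pathway. The phosphorylation of eIF2 and the translation of ATF4 are not seen in mRNA levels.

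The cells were INS-1 832/13, a line from a rat insulinoma, plated in 12-well dishes 24 h ahead of an exposure of 24 h. The mRNA libraries numbered 4 with the label untreated and 5 with the label iAs (inorganic arsenic, 1 µM), and the comparison asked which genes differ with iAs. The labels name no form of arsenic, no genotype change and no vehicle, and say nothing of separate cultures within a group, so the p-values cover only the spread among these libraries, and that spread may be technical. Libraries of small RNA were also made, after iAs, cadmium or manganese, and are not used here because they hold no mRNA.

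Column totals were 51009800 to 55869159 normalized counts, which after normalization do not give the depth. The labels give the tissue as liver. The summed level of 11 matched beta cell markers was 2292585 to 2943659 normalized counts per library, and the hepatocyte gene Alb was listed at 0 in every library except iAs replicate 5, with 2.01. Other hepatocyte markers went both ways: Fgb was at 211 to 702, Serpina1 at 155 to 528 and Apob at 44.0 to 146 normalized counts. Cyp2e1 was at 0 in every library, and Cps1, Tat and Apoa1 did not exceed 2.87, 12.9 and 19.4. Lane 3 held all libraries labelled untreated and lane 4 all those labelled iAs; the group cannot be told apart from the lane. Of 5 measured oxidant and metal response genes, which arsenic is known to raise, 4 were lower in the libraries labelled iAs. Of all genes tested 14.9% were lower (limma with Benjamini-Hochberg adjustment, as for every adjusted p below). Hmox1, encoding heme oxygenase 1, had 14132 ± 1727 normalized counts in libraries labelled untreated (SD, n = 4) and 1739 ± 465 in those labelled iAs (SD, n = 5), a log2 difference of -3.06 (adjusted p = 8.5e-07). That is opposite to the response named, and every direction between groups given here rests on the labels.

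Each library name starts with a code, and the last digits of the code have 3 forms that occur in both groups; the labels do not say what they stand for. Ending 52 was on 2 libraries labelled untreated and 3 labelled iAs. The second ending was on 1 library of each group, 0C513 and 1B513 (untreated replicate 2 and iAs replicate 3), and so was the third, 0C922 and 1A922. Libraries 0C922 (untreated replicate 4) and 1A922 (iAs replicate 2) stood apart in the genes followed here. For the set and for other genes of the pathway, counts past the adjusted threshold are therefore given also with the code ending as a block. That fit compares libraries of the same ending. Single genes are given from 1 fit or from both. A difference between groups with no fit named is from the fit without the block.

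Promoter windows were searched for the letters of the element that ATF4 and C/EBP proteins bind. Windows of 250 bases before the annotated start were taken from RefSeq (build GRCr8, not the rn6 build of the study), and 30 of the 36 genes matched 1 promoter each. The short core TGATGCAA, searched on both strands, occurred in the window of 6 of the 30 genes (Chac1, Got1, Nupr1, Ppp1r15b, Pycr1 and Slc1a4) and in 0.693% of 33469 promoters. It was added after the longer, looser core TGATGNAAT, which overlaps it, had been found in 2 of the 30 (Nupr1 and Pycr1) and in 0.944% of all promoters. The windows of both genes with the longer core are printed to show it, with those of Chac1 and Slc1a4, 2 of the 4 genes with the short core alone, chosen after their values were seen. The cAMP response element TGACGTCA was in 1 of the 30 (Ppp1r15a) and in 1.59% of all promoters. A match of letters is not evidence of binding. The windows are chr3:126795881-126796130 (plus strand) for Chac1, chr14:98761563-98761812 (minus strand) for Slc1a4, chr1:190645902-190646151 (minus strand) for Nupr1 and chr10:106420813-106421062 (minus strand) for Pycr1, read 5′ to 3′ toward the start with the matched letters in capitals: the short core in Chac1 and Slc1a4, from the opposite strand and so printed as TTGCATCA, and the longer core in Nupr1 (opposite strand) and Pycr1:
Chac1: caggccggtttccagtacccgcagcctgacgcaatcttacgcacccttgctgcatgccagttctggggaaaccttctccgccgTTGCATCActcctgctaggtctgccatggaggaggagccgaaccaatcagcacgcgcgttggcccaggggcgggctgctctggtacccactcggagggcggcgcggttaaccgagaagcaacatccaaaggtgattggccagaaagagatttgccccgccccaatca
Slc1a4: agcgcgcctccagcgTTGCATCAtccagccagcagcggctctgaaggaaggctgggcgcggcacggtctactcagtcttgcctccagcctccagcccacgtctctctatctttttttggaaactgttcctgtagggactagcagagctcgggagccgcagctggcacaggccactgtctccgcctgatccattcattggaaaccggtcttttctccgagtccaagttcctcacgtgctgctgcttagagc
Nupr1: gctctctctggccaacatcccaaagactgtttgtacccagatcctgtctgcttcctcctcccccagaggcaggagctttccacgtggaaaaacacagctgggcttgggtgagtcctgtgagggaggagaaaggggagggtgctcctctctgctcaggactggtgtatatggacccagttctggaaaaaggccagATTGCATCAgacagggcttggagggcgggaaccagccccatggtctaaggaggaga
Pycr1: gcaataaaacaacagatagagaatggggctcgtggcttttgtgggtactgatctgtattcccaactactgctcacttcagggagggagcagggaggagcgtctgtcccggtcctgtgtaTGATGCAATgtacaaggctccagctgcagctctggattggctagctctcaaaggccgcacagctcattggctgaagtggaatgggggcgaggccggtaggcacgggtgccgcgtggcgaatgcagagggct
Chac1 and Slc1a4 were among the genes that differed most between the third ending and ending 52, Nupr1 was in between, and Pycr1 is of low level and was not past the threshold there. The genes with the short core that are not printed differed by 0.39 (Ppp1r15b) and 0.19 (Got1, not past the threshold) on the log2 scale. Trib3, the second highest of the set by ending, had no match. Whether the element goes with that difference was not tested.

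Between the labelled groups, none of the 33 genes was higher and 6 were lower in libraries labelled iAs (18.2%), at an adjusted p under 0.05 in limma. Over all 14410 genes 15.1% were higher and 14.9% lower. At an unadjusted p under 0.05, 1 gene of the set was higher and 9 were lower, and 5868 of all 14410 genes passed in either direction. The 6 were the transcription factors Atf5, Cebpb and Ddit3, the kinase Eif2ak2, the phosphatase subunit Ppp1r15a and the transporter Slc1a5. The median log2 difference of the 33 was -0.17, against -0.0007 over all genes tested. In 4 of the 33 (12.1%) every library labelled iAs lay below every library labelled untreated, as in 12.9% of all genes; groups without overlap in either direction made up 25.9% of all genes. The share of lower genes was thus near that of all genes in this fit.

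With the code ending as a block, 15 of the 33 genes were lower in libraries labelled iAs (45.5%) and 3 were higher (9.09%). Among all genes 18.0% were lower and 18.6% higher in that fit, 36.6% together. All 6 genes above stayed lower, joined by Atf4, Nupr1, Ppp1r15b, Trib3, Sesn2, Chac1, Got1, Slc3a2 and Slc1a4. The 3 higher genes were Shmt2, Psph and Pycr1, enzymes of serine use, serine synthesis and proline synthesis. Without 0C922 and 1A922, an alternative added after the data were seen, 10 genes were lower (30.3%, against 13.1% of all genes) and 3 higher (9.09%, against 13.8%). In the 5 libraries ending in 52 alone, 10 were lower (30.3%, against 10.1%) and 2 higher (6.06%, against 10.9%). The number of higher genes also went to 2 without untreated replicate 4, with 5 lower. Of the 18 genes called with the block, Trib3, Chac1, Got1 and Slc3a2 were not past the threshold in either of the sets without 0C922 and 1A922 and of ending 52 alone, Atf4 was not in the former, and Slc1a5 and Pycr1 were not in the latter.

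**Figure D1:**
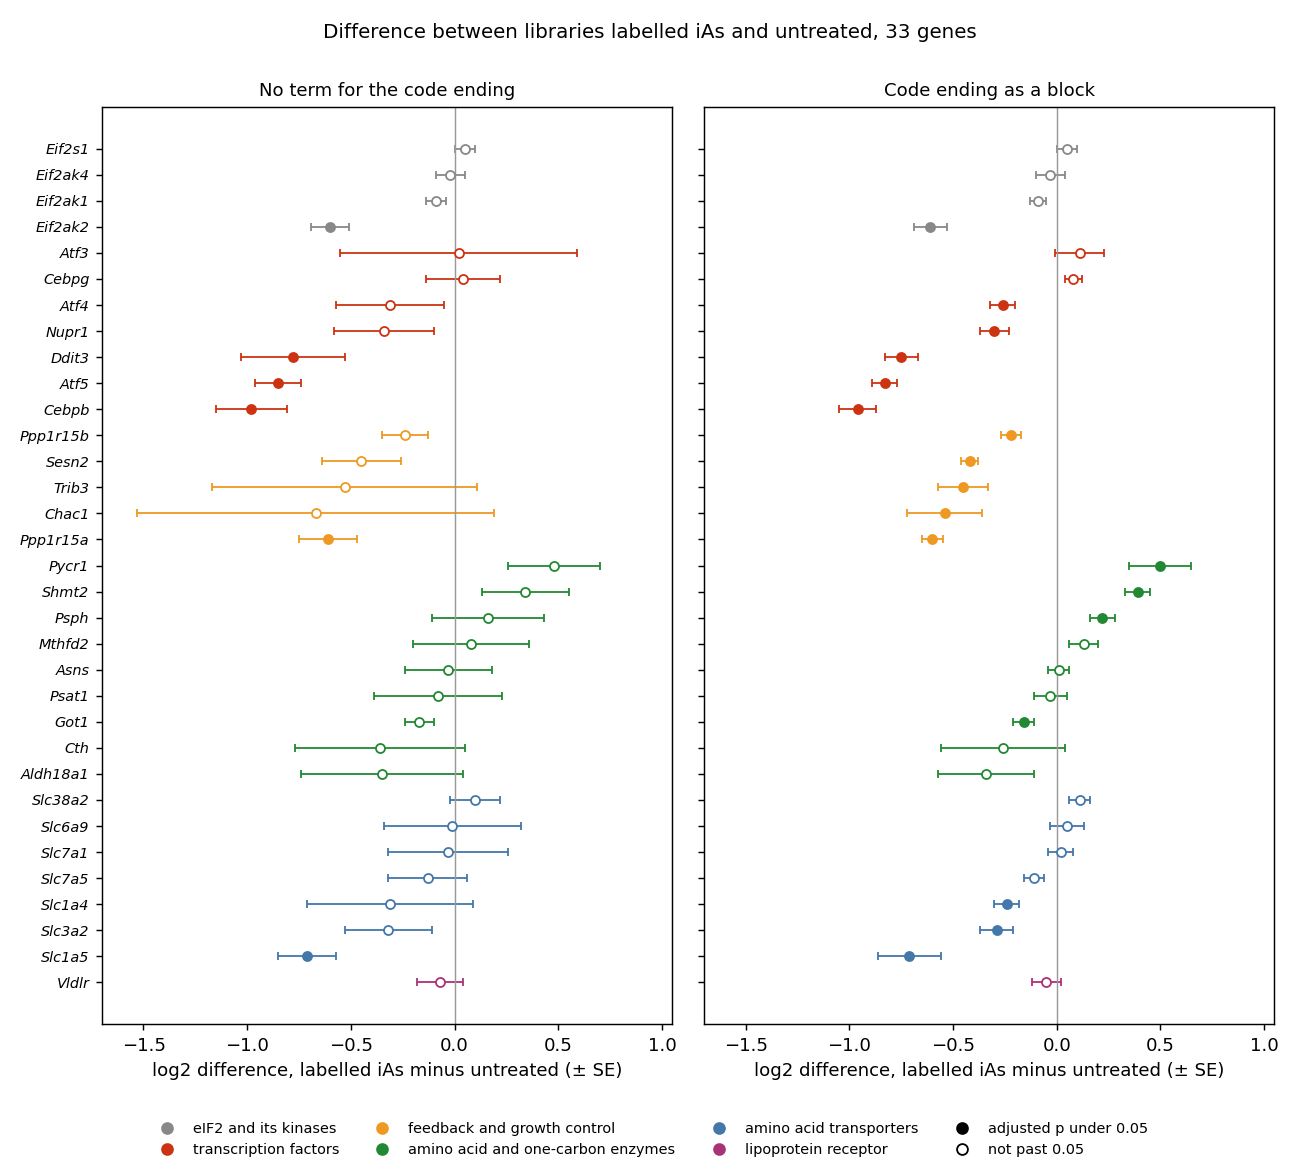
Log2 difference (horizontal axis, labelled iAs minus labelled untreated, log2 of normalized count + 1) of each of the 33 genes with its SE as a bar, coloured by role, without (left) and with (right) the code ending as a block. Filled points have an adjusted p under 0.05: 6 genes, all lower, on the left, and 15 lower and 3 higher on the right, where the bars of Chac1, Trib3 and Atf3 shrank from 0.86, 0.64 and 0.57 to 0.18, 0.12 and 0.12.

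Of the 4 genes of eIF2 and its kinases, 1 was lower in libraries labelled iAs and none higher, with and without the block. Over all genes 14.9% were lower and 15.1% higher without the block, and 18.0% and 18.6% with it. Eif2s1 (ENSRNOG00000009432), the phosphorylated alpha subunit, had 3038, 2653, 2793 and 2887 normalized counts in untreated replicates 1 to 4 and 2909, 2970, 2934, 2917 and 2990 in iAs replicates 1 to 5. Neither the groups nor the code endings separated these values, and the log2 difference between groups was 0.05 (SE 0.05, adjusted p = 0.48). Eif2ak1, the heme-regulated kinase, differed by -0.09 (adjusted p = 0.19), and Eif2ak4, the kinase that senses uncharged tRNA, by -0.02 (adjusted p = 0.82).

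Eif2ak2, the kinase activated by double-stranded RNA, was the lower one. It had 2815, 2133, 2388 and 2401 normalized counts in untreated replicates 1 to 4 and 1405, 1637, 1551, 1620 and 1796 in iAs replicates 1 to 5. Every library labelled iAs was below every library labelled untreated, and 0C922 and 1A922 lay within their groups. The log2 difference was -0.60 (SE 0.09, adjusted p = 0.0004), and -0.61 (SE 0.08, adjusted p = 0.00025) with the block.

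Of 7 transcription factors, 3 were lower in libraries labelled iAs without the block (14.9% of all genes) and 5 with it (18.0%). None was higher (15.1% and 18.6% of all genes). The number lower was 4 without 0C922 and 1A922 (13.1% of all genes) and 5 in ending 52 alone (10.1%). Atf4 (ENSRNOG00000017801), the central activator, had 18464, 15089, 18313 and 35809 normalized counts in untreated replicates 1 to 4. In iAs replicates 1 to 5 it had 12939, 30072, 14273, 15317 and 15248. Libraries 0C922 and 1A922 were about double the others of their groups, and the groups overlapped. The log2 difference between groups was -0.31 (SE 0.26, adjusted p = 0.41), and -0.26 (SE 0.06, adjusted p = 0.0082) with the block; without 0C922 and 1A922 it was also -0.26, with an adjusted p of 0.053.

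Atf5, a relative of ATF4 that is translated by the same mechanism, was the most abundant transcription factor mRNA of the set in normalized counts, which are not per length. Its values were 32396, 31581, 32372 and 41879 in untreated replicates 1 to 4 and 16237, 23692, 16894, 20127 and 19303 in iAs replicates 1 to 5. The groups did not overlap, although 0C922 and 1A922 were the highest of their groups. Between groups the log2 difference was -0.85 (SE 0.11, adjusted p = 0.00021), and -0.83 (SE 0.06, adjusted p = 6.5e-06) with the block.

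Cebpb, a C/EBP protein that partners ATF4, had 3516, 3097, 3446 and 4630 normalized counts in untreated replicates 1 to 4 and 1455, 2689, 1526, 1743 and 2058 in iAs replicates 1 to 5. Again the groups did not overlap and 0C922 and 1A922 were the highest of their groups. The log2 difference of -0.98 (SE 0.17, adjusted p = 0.0012) was the lowest in the set. With the block it was -0.96 (SE 0.09, adjusted p = 2.4e-05).

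Ddit3, encoding the pro-apoptotic factor CHOP, had 3057, 2459, 3110 and 6014 normalized counts in untreated replicates 1 to 4 and 1608, 3203, 1569, 1935 and 2073 in iAs replicates 1 to 5. Here the groups overlapped only through 1A922 (iAs replicate 2), which exceeded the untreated libraries other than 0C922. This gave a log2 difference of -0.78 (SE 0.25, adjusted p = 0.034) and, with the block, -0.75 (SE 0.08, adjusted p = 3.7e-05). The call without the block was lost without any 1 of untreated replicates 1, 3 or 4 or iAs replicates 1, 3, 4 or 5. Adjusted p was then from 0.052 to 0.077. With all libraries kept, the call was also lost in limma without a trend (adjusted p = 0.08) and with a replicate block (adjusted p = 0.071). Without 0C922 and 1A922 the difference was -0.68 (adjusted p = 0.0025).

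Atf3, an early stress-induced factor, had 421, 324, 478 and 1621 normalized counts in untreated replicates 1 to 4 and 366, 2374, 348, 425 and 501 in iAs replicates 1 to 5. Apart from libraries 0C922 and 1A922 the groups covered the same range. On the log2 scale the groups differed by 0.02 (SE 0.57, adjusted p = 0.98), and 0.11 (SE 0.12, adjusted p = 0.52) with the block.

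The other factors were Cebpg, a dimer partner of ATF4, and Nupr1, a small stress-induced chromatin protein. Cebpg ranged from 4394 to 4473 normalized counts in untreated libraries and from 4691 to 4793 in those labelled iAs, leaving aside libraries 0C922 and 1A922 at 7663 and 7737. Its log2 difference between groups was 0.04 (adjusted p = 0.88). Nupr1 was at 15700 and 12727 in libraries 0C922 and 1A922 and between 5979 and 9048 in the rest. Its difference was -0.34 (SE 0.24, adjusted p = 0.3) without the block and -0.30 (SE 0.07, adjusted p = 0.0064) with it.

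**Figure D2:**
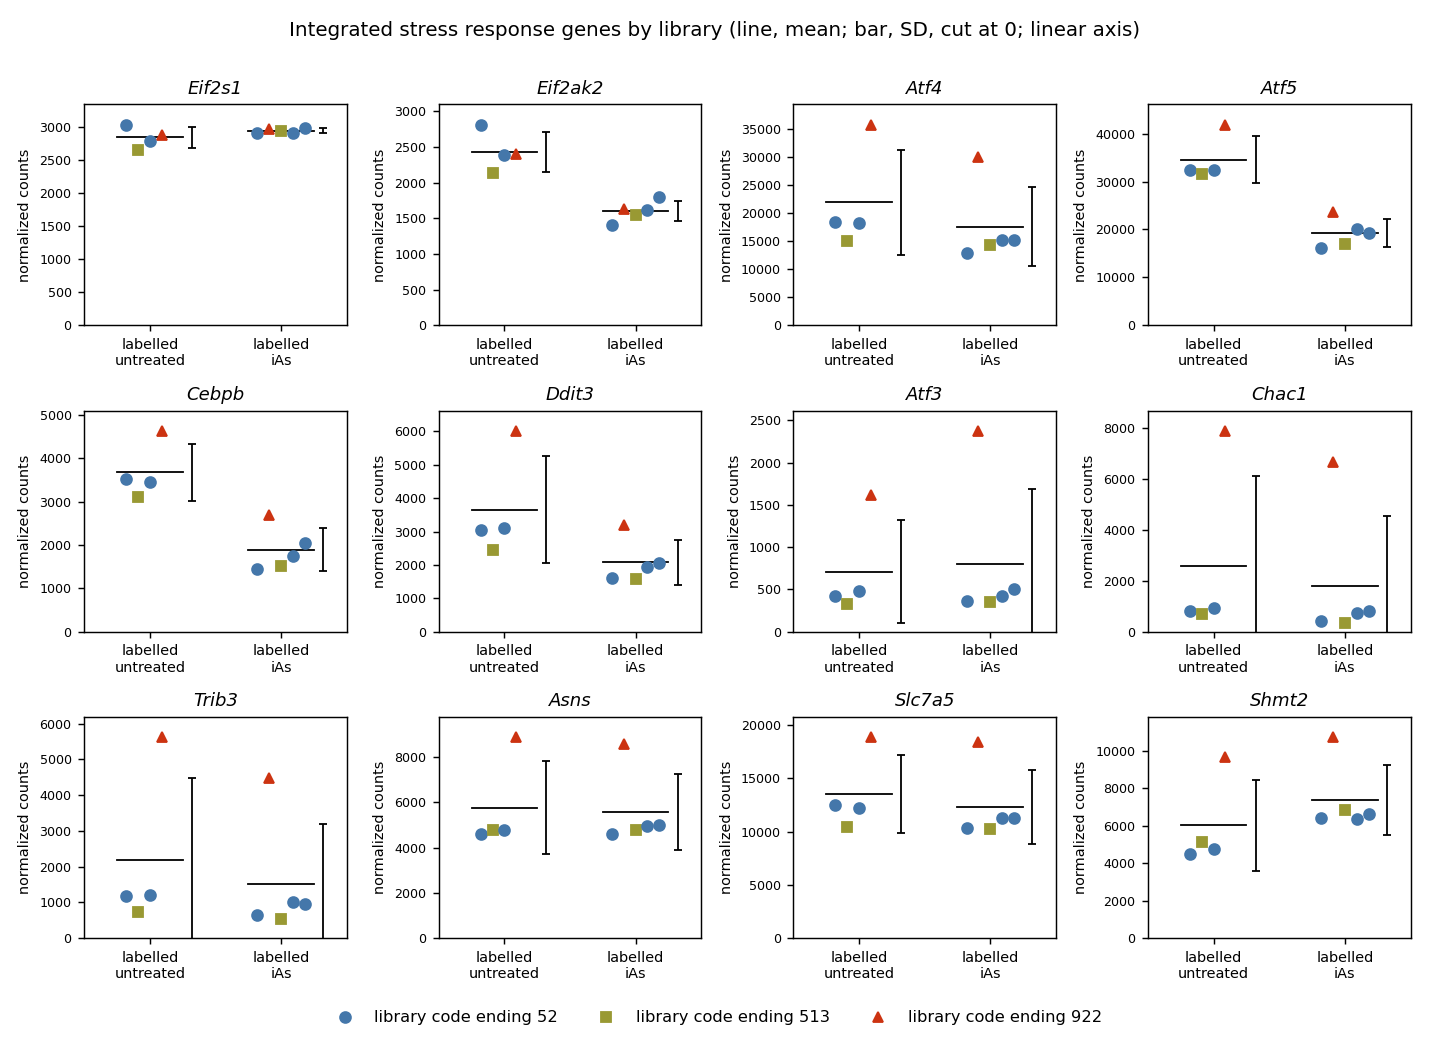
Normalized counts (vertical axes, linear, from 0) of 12 genes in each library, grouped by label, with the mean as a line and the SD as a bar; marker shape and colour give the ending of the library code. The red triangles, libraries 0C922 and 1A922, lie above all other libraries of their group for Atf4, Atf3, Chac1, Trib3 and Asns and within them for Eif2s1, where all 9 values lie between 2653 and 3038.

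All 5 tested feedback and growth regulators were lower in libraries labelled iAs with the block (18.0% of all genes), and 1 without it (14.9%). Without 0C922 and 1A922, and in ending 52 alone, 3 of the 5 were lower (13.1% and 10.1% of all genes). Ppp1r15a, encoding the stress-induced subunit GADD34 of the phosphatase that reverses eIF2 phosphorylation, had 3825, 3217, 3806 and 5192 normalized counts in untreated replicates 1 to 4 and 2263, 3361, 2310, 2558 and 2549 in iAs replicates 1 to 5. Only iAs replicate 2 (1A922) reached the untreated range. The groups differed on the log2 scale by -0.61 (SE 0.14, adjusted p = 0.0056), and -0.60 (SE 0.05, adjusted p = 2.2e-05) with the block. Its constitutive counterpart Ppp1r15b differed by -0.24 (adjusted p = 0.11), and by -0.22 (SE 0.05, adjusted p = 0.0041) with the block. Without iAs replicate 2 it differed by -0.32 (adjusted p = 0.014).

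Trib3, the pseudokinase that restrains ATF4, had 1191, 732, 1214 and 5620 normalized counts in untreated replicates 1 to 4 and 643, 4488, 538, 999 and 959 in iAs replicates 1 to 5. Library 0C922 was 5.38 times the mean of the other untreated libraries, and 1A922 was 5.72 times that of the others labelled iAs. The log2 difference between groups was -0.53 (SE 0.64, adjusted p = 0.57). With the block it was -0.45 (SE 0.12, adjusted p = 0.012), but without 0C922 and 1A922 the adjusted p was 0.23.

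Chac1 (ENSRNOG00000014387), whose product degrades glutathione and whose promoter window is printed above, had 832, 685, 945 and 7878 normalized counts in untreated replicates 1 to 4. In iAs replicates 1 to 5 it had 419, 6669, 355, 734 and 807. Library 0C922 was 9.60 times the mean of the rest of the untreated group and 1A922 was 11.5 times that of the iAs group, the highest ratios in the set. The log2 difference between groups was -0.67 (SE 0.86, adjusted p = 0.59), and -0.54 (SE 0.18, adjusted p = 0.033) with the block; without 0C922 and 1A922 the adjusted p was 0.14.

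Sesn2, a leucine sensor that holds mTORC1 back, had 13686, 13051, 13823 and 22880 normalized counts in untreated replicates 1 to 4 and 10054, 17424, 9651, 10293 and 10512 in iAs replicates 1 to 5. Leaving aside libraries 0C922 and 1A922, every library labelled iAs was below every untreated one. The log2 difference was -0.45 (SE 0.19, adjusted p = 0.096), and -0.42 (SE 0.04, adjusted p = 2.6e-05) with the block. Without iAs replicate 2 alone it was -0.61, with an adjusted p of 0.011. Eif4ebp1, the translational repressor 4E-BP1 and another ATF4 target, was listed at 0 in every library except untreated replicate 3, with 1.63, and was not tested.

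Enzymes went both ways with the block: 3 of 9 were higher and 1 was lower, against 18.6% and 18.0% of all genes. None was past the threshold without it, against 15.1% of all genes higher and 14.9% lower. Asns, asparagine synthetase and a standard readout of ATF4, had 4616, 4791, 4785 and 8865 normalized counts in untreated replicates 1 to 4 and 4614, 8579, 4767, 4958 and 4994 in iAs replicates 1 to 5. Libraries 0C922 and 1A922 were at nearly the same level in both groups, and so were the rest. The log2 difference between groups was 0.01 (SE 0.05, adjusted p = 0.85) with the block and -0.03 (SE 0.21, adjusted p = 0.93) without it.

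Shmt2, the mitochondrial enzyme that passes a carbon unit from serine to folate, had 4514, 5137, 4745 and 9645 normalized counts in untreated replicates 1 to 4 and 6395, 10715, 6814, 6365 and 6624 in iAs replicates 1 to 5. Within each ending the libraries labelled iAs were higher. Between groups the log2 difference was 0.34 (SE 0.21, adjusted p = 0.26), and 0.39 (SE 0.06, adjusted p = 0.0004) with the block. Without untreated replicate 4 (0C922) it was 0.59 (adjusted p = 0.013).

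The serine synthesis enzymes did not move together between groups. Psph, which makes serine from phosphoserine, differed by 0.22 (SE 0.06, adjusted p = 0.017) with the block, and libraries 0C922 and 1A922 were nearly equal at 5657 and 5619 normalized counts. Psat1, the step before it, differed by -0.03 (SE 0.08, adjusted p = 0.77) with the block. Phgdh, the entry enzyme of the same route, was listed at 0 in every library except untreated replicate 1, with 3.23 normalized counts, while Psat1 was at 3989 to 11511 and Psph at 2343 to 5657.

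Of the proline enzymes, Pycr1 was at 124 to 297 normalized counts. It differed by 0.48 (SE 0.22, adjusted p = 0.12) without the block and by 0.50 (SE 0.15, adjusted p = 0.02) with it. Leaving out untreated replicate 4 gave 0.70 (adjusted p = 0.016) without the block. Aldh18a1, at 1772 to 10520, differed by -0.34 (SE 0.23, adjusted p = 0.28) with the block. Mthfd2, which follows SHMT2 in the mitochondrial folate pathway, differed by 0.13 (SE 0.07, adjusted p = 0.17) with the block. Got1, a cytosolic aspartate aminotransferase, was at -0.16 (SE 0.05, adjusted p = 0.027) with the block. It was at -0.12 (adjusted p = 0.13) without 0C922 and 1A922 and -0.09 (adjusted p = 0.36) in the libraries ending in 52 alone. Cth, the last step of cysteine synthesis from methionine, had only 24.3 to 89.1 normalized counts and differed by -0.26 (SE 0.30, adjusted p = 0.54) with the block.

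Of 7 tested transporters, 1 was lower in libraries labelled iAs without the block (14.3%, against 14.9% of all genes). With the block 3 were lower (42.9%, against 18.0%). The number lower was 2 without 0C922 and 1A922 (28.6%, against 13.1%) and 1 in ending 52 alone (14.3%, against 10.1%). Slc1a5, the glutamine exchanger ASCT2, had 241, 239, 230 and 278 normalized counts in untreated replicates 1 to 4 and 133, 139, 133, 166 and 189 in iAs replicates 1 to 5. The groups did not overlap, and iAs replicate 2 was not high for its group. This gave a log2 difference of -0.71 (SE 0.14, adjusted p = 0.0031), and -0.71 (SE 0.15, adjusted p = 0.0031) with the block, but in the libraries ending in 52 alone it was -0.54 with an adjusted p of 0.084.

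Slc7a5, the leucine transporter LAT1, had 12540, 10474, 12189 and 18856 normalized counts in untreated replicates 1 to 4 and 10339, 18427, 10288, 11291 and 11262 in iAs replicates 1 to 5. The groups overlapped, with 0C922 and 1A922 the highest of their groups. On the log2 scale the groups differed by -0.13 (SE 0.19, adjusted p = 0.63), and -0.11 (SE 0.05, adjusted p = 0.11) with the block. Its heavy-chain partner Slc3a2 differed by -0.32 (adjusted p = 0.29) without the block and -0.29 (SE 0.08, adjusted p = 0.012) with it, and by -0.28 (adjusted p = 0.063) without 0C922 and 1A922.

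Slc1a4, the neutral amino acid exchanger ASCT1, had 1749, 1534, 1784 and 4802 normalized counts in untreated replicates 1 to 4 and 1433, 4681, 1304, 1366 and 1436 in iAs replicates 1 to 5. Leaving aside libraries 0C922 and 1A922, every library labelled iAs was below every untreated one. The log2 difference was -0.31 (SE 0.40, adjusted p = 0.6) without the block and -0.24 (SE 0.06, adjusted p = 0.0096) with it. The arginine and lysine transporter Slc7a1 (0.02, adjusted p = 0.79), the glycine transporter Slc6a9 (0.05, adjusted p = 0.67) and the small neutral amino acid transporter Slc38a2 (0.11, adjusted p = 0.093) were not past the threshold with the block. Slc7a3, a cationic amino acid transporter, was between 0 and 12.2 normalized counts and not tested. Vldlr, the lipoprotein receptor, differed by -0.05 (SE 0.07, adjusted p = 0.61) with the block.

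More of these genes were past the threshold by the ending of the library code than by the label. The third ending was set against ending 52 as a term of the fit that holds group and ending; that fit was planned, but this term was read after the values had been seen. In it, 23 of the 33 genes were higher with the third ending (69.7%) and none was lower, against 1.87% of all genes higher and 1.12% lower. The 23 were all 7 transcription factors, all 5 feedback genes, 5 of 9 enzymes and 6 of 7 transporters, and none of the 4 genes of eIF2 and its kinases. The median log2 difference was 0.78 over the 33 genes and 0.00064 over all genes tested. The set's count was 18 without untreated replicate 4 and 19 without iAs replicate 2, and 21 to 24 without any other library. Over all genes the count, 432 in both directions, was 78 and 131 without those libraries, 211 and 165 without untreated replicates 1 and 3, 209 without iAs replicate 5 and 907 without iAs replicate 1. Both 0C922 and 1A922 were the highest of their groups for 27 of the 33 genes (81.8%), and for 13.9% of all genes. Both measures come from 2 libraries.

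Chac1 had the highest log2 difference of the set between the third ending and 52, at 3.27 (SE 0.22, adjusted p = 2.5e-05), and ranked 6 among 14410 genes from the highest. Trib3 followed at 2.32 (SE 0.14, adjusted p = 2.4e-05), ranked 17, and Atf3 at 2.18 (SE 0.15, adjusted p = 3.1e-05), ranked 22. Slc1a4 differed by 1.59 (SE 0.07, adjusted p = 3.8e-06) and Slc6a9 by 1.33 (SE 0.10, adjusted p = 5.7e-05), ranked 44 and 71. Atf4 itself differed by 1.02 (SE 0.08, adjusted p = 6.1e-05). These 5 genes thus differed more between the endings than Atf4 did, in point estimates whose difference was not tested.

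Enzymes and transporters called here lay mostly close to Atf4. Slc7a1 differed by 1.16, Psat1 by 1.14, Psph by 1.09, Mthfd2 by 1.08, Shmt2 by 0.89 and Asns by 0.87. Slc3a2 (0.78), Slc7a5 (0.69) and Slc38a2 (0.41) differed less. Among the factors, Nupr1 (0.89), Ddit3 (0.87) and Cebpg (0.74) were nearer to Atf4 than Cebpb (0.53, adjusted p = 0.032) and Atf5 (0.36, adjusted p = 0.035). Both calls were lost without any 1 of untreated replicates 1, 3 and 4 and iAs replicate 2, Atf5 also without iAs replicate 5 and Cebpb without iAs replicate 4 (adjusted p from 0.06 to 0.25 for Atf5 and from 0.053 to 0.29 for Cebpb). Of the feedback genes, Sesn2 was at 0.75, Ppp1r15a at 0.45 and Ppp1r15b at 0.39. The calls of Ppp1r15a and Ppp1r15b were lost without untreated replicate 4 (adjusted p = 0.13 and 0.07) or iAs replicate 2 (0.075 and 0.11), and that of Slc38a2 without untreated replicate 4 (0.14).

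The 10 genes not past the threshold between the third ending and 52 included the 4 of eIF2 and its kinases, at -0.07 to 0.0048. Slc1a5 was at -0.0032 (SE 0.18, adjusted p = 0.99). Cth (1.18, SE 0.38) and Aldh18a1 (0.95, SE 0.29) had wide errors, with adjusted p of 0.12 and 0.099. Pycr1 (0.64, adjusted p = 0.086), Vldlr (0.36, adjusted p = 0.057) and Got1 (0.19, adjusted p = 0.13) made up the rest. The second ending against 52, the same fit's other term, called none of the 14410 genes in limma (1323 had an unadjusted p under 0.05, among them 1 gene of the set higher and 8 lower).

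**Figure D3:**
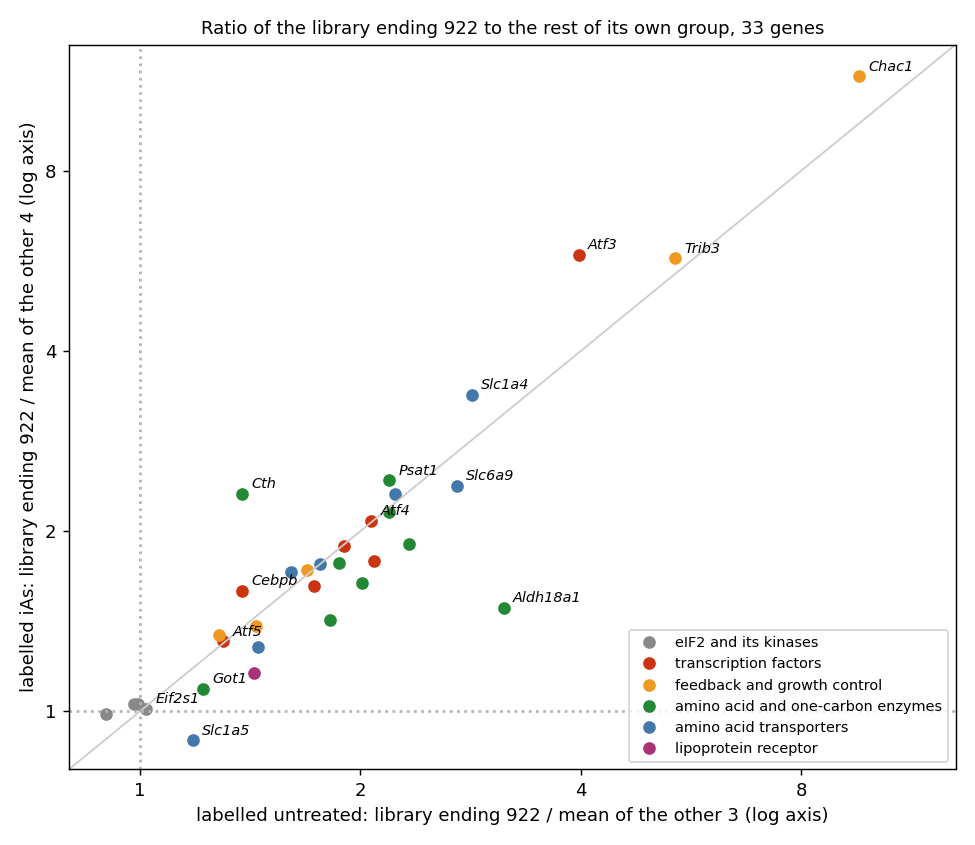
Ratio of library 0C922 or 1A922 to the mean of the other libraries of its own group, untreated (horizontal) against iAs (vertical), both on log axes, 1 point per gene coloured by role; the diagonal marks equal ratios and the dotted lines a ratio of 1. Chac1 is at 9.60 and 11.5, Atf4 at 2.07 and 2.08, and the 4 genes of eIF2 and its kinases lie between 0.898 and 1.03.

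The mitochondrial shares of libraries 0C922 and 1A922 were 5.71% and 5.51%, within a range of 4.29% to 7.34%. Totals of normalized counts do not show sequencing depth. From the spacing of low values, 1 read was worth about 0.99 and 1.19 normalized counts in these libraries, in a range of 0.81 to 1.19 over the 9, with 1A922 the highest; a higher value means fewer reads. Ins1, the main insulin gene, had its lowest share in each group there, at 3.01% (untreated range up to 3.90%) and 2.32% (iAs range up to 3.18%). The summed level of 8 hepatocyte markers was highest in each group there, at 1397 and 738 normalized counts, against 981 to 1166 and 471 to 700 in the rest. Fgb, Serpina1 and Apob made up most of these sums. Of them only Serpina1, at 528 and 390, was highest in both groups there. In 1A922 Fgb was at 240 and Apob at 90.2, below 311 in iAs replicate 5 and 92.2 in iAs replicate 3. Fibroblast markers summed to 25.6 and 0, endothelial to 166 and 256, acinar to 481 and 326 and immune to 31.2 and 40.8, in ranges of 0 to 32.5, 106 to 256, 324 to 486 and 31.2 to 79.9. Their part in the result was not tested, and in bulk RNA a smaller share of cells and less RNA per cell cannot be told apart. Hmox1 was not past the threshold between these endings, nor was any of the 5 oxidant and metal genes.

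Replicate spread followed the same libraries. The median coefficient of variation of the 33 genes was 35.7% in the untreated group and 28.1% in the iAs group, against 9.93% and 9.58% over all genes tested. Without libraries 0C922 and 1A922 the medians were 8.58% and 7.91%, against 7.93% and 8.75% over all genes. Chac1 went from 137% to 15.9% in the untreated group and from 152% to 38.8% in the iAs group. Cebpg went from 30.7% to 0.942% and from 24.8% to 1.03%, so its libraries other than these were almost equal. Eif2s1 was at 5.69% and 1.18% with all libraries. Aldh18a1 kept a wide spread without libraries 0C922 and 1A922, at 44.9% and 25.3%, as did Cth, at 50.4% and 34.3%.

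**Figure D4:**
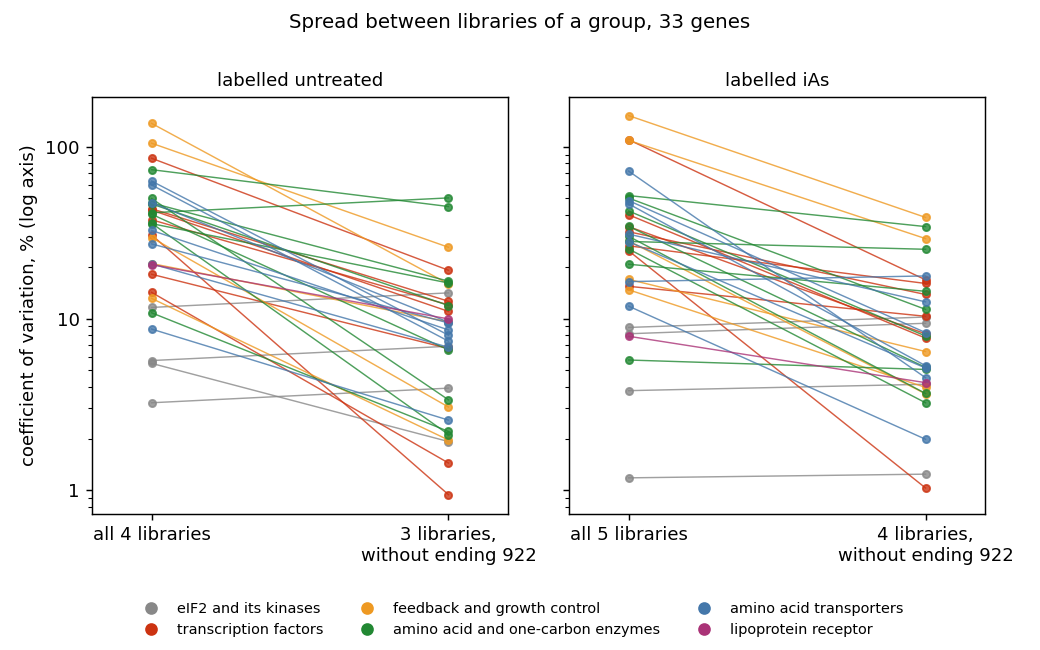
Coefficient of variation (SD over mean, in percent, log axis) of each of the 33 genes over all libraries of a group and without 0C922 or 1A922, untreated left and iAs right; lines join the same gene and colours give the role. Most lines fall, with medians of 35.7% and 8.58% in the untreated group and 28.1% and 7.91% in the iAs group. Those of eIF2 and its kinases lie between 1.18% (Eif2s1) and 14.1% (Eif2ak2).

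Within each ending, 17 of the 33 genes were lower in libraries labelled iAs for all 3 endings (51.5%), against 30.1% of all genes, and 5 were higher for all 3, against 30.4%. The second and the third endings give 1 library against 1. Sesn2 differed by -0.42, -0.44 and -0.39 on the log2 scale in ending 52, the second and the third, and Atf5 by -0.81, -0.90 and -0.82. Their values within the 3 endings lay close together. Atf3 was not alike across endings, at -0.07, 0.10 and 0.55, and Chac1 was lower by unequal amounts, at -0.50, -0.95 and -0.24.

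**Figure D5:**
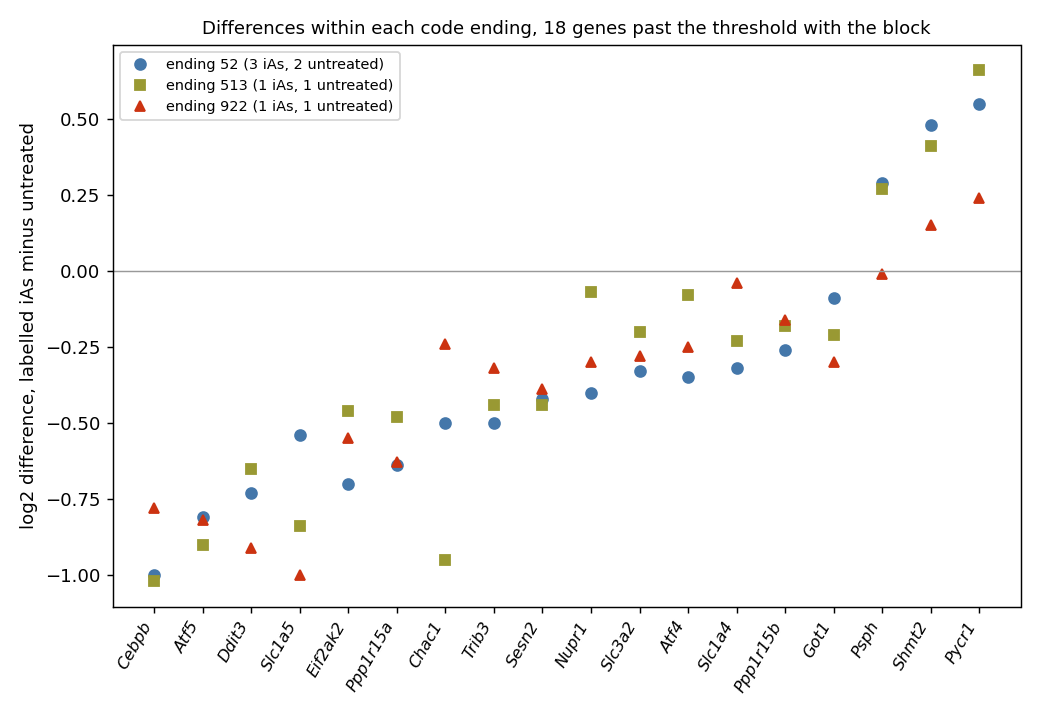
Log2 difference between libraries labelled iAs and untreated (vertical axis) within each code ending, for the 18 genes past the threshold with the ending as a block, ordered from the lowest to the highest estimate with the block. The 15 lower genes lie below 0 for each ending, and Shmt2 and Pycr1 above 0 for each ending; Psph is at 0.29, 0.27 and -0.01.

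Other genes of the pathway, from lists outside the 36, were read in the same fits. Cytosolic aminoacyl-tRNA synthetases load tRNAs with amino acids, and many are known ATF4 targets. Of 20 tested, 2 were lower in libraries labelled iAs without the block (Aars1 and Hars1; 14.9% of all genes) and 8 with it (18.0% of all genes), when 1 was higher (18.6% of all genes). The count without the block was thus not above the general share. Aars1, for alanine, had 16197 ± 3815 normalized counts (SD, n = 4) and 11196 ± 3194 (SD, n = 5), a log2 difference of -0.54 (limma adjusted p = 0.037, and 5.2e-05 with the block). Without iAs replicate 2 the count of lower synthetases was 4, and it was 1 without any of untreated replicates 1, 3 and 4 or iAs replicates 1, 3, 4 and 5. Between the third ending and 52, 12 of 20 were higher and none lower, with a median of 0.37, against 1.87% of all genes higher and 1.12% lower. Hars1, for histidine, was lower by label (-0.25, adjusted p = 0.0031) and not past the threshold by ending.

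Of 14 tested further ATF4 targets, 2 were higher (Vegfa and Mthfd1l) and 1 lower (Gdf15) in libraries labelled iAs without the block, against 15.1% and 14.9% of all genes. With the block 3 were higher and 4 lower, against 18.6% and 18.0%. The counts without the block were near or below the general share. Gdf15, a stress-induced secreted factor, had 1315, 1102, 1155 and 2030 normalized counts in untreated replicates 1 to 4 and 356, 870, 331, 479 and 429 in iAs replicates 1 to 5. The groups did not overlap, and 0C922 and 1A922 were again the highest of their groups. The groups differed on the log2 scale by -1.55 (SE 0.26, adjusted p = 0.00095). Vegfa, the angiogenic growth factor, was at 29851 ± 5524 and 46705 ± 5849 (SD, n = 4 and 5 libraries), a log2 difference of 0.66 (limma adjusted p = 0.0018), and Mthfd1l, of mitochondrial folate metabolism, differed by 0.63 (adjusted p = 0.0019). Without iAs replicate 2 the lower count was 3, and without untreated replicate 2 it was 2.

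Between the third ending and 52, 10 of the 14 further targets were higher and none lower, against 1.87% of all genes higher and 1.12% lower. Without untreated replicate 4 the count of higher targets was 4. Slc7a11, the cystine importer, named here after its values were seen, had 179, 145, 189 and 868 normalized counts in untreated replicates 1 to 4 and 87.4, 820, 85.1, 74.7 and 138 in iAs replicates 1 to 5. Libraries 0C922 and 1A922 were nearly equal and far above the rest. Its log2 difference between endings was 2.68, between those of Chac1 and Trib3.

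Among the other subunits of eIF2, its exchange factor eIF2B and the kinase PERK, 2 of 8 were higher in libraries labelled iAs (Eif2b3 and Eif2s3) and none lower, against 15.1% and 14.9% of all genes. With the block 3 were higher and 1 lower, against 18.6% and 18.0%. Eif2b3 had 1228 ± 101 and 1713 ± 134 normalized counts (SD, n = 4 and 5 libraries), a log2 difference of 0.48 (limma adjusted p = 0.00082). Without untreated replicate 2 or 4, or iAs replicate 2, 4 or 5, only 1 was higher. Between endings 1 of 8 was higher (Eif2s2, 0.47), against 1.87% of all genes, and that call was lost without either 0C922 or 1A922.

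Of 12 tested genes of amino acid sensing upstream of mTORC1 and of GCN2 cofactors, 3 were lower (Rragd, Rragc and Impact) and 1 higher (Sesn1) in libraries labelled iAs, with and without the block. Of all genes 14.9% were lower and 15.1% higher without the block, and 18.0% and 18.6% with it. Rragd, a Rag GTPase that recruits mTORC1 to lysosomes, had 2526 ± 330 and 1534 ± 183 normalized counts (SD, n = 4 and 5 libraries), a log2 difference of -0.72 (limma adjusted p = 0.00036). Its relative Rragc differed by -0.52 (adjusted p = 0.00045). Between endings none of the 12 was past the threshold in limma.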

How the data were processed

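The mRNA of INS-1 832/13 cells was measured in 9 libraries, 4 with the label untreated and 5 with the label iAs; per the labels a Kapa mRNA kit was used. The values are a signal: per the labels, the authors deposited gene counts normalized with DESeq2. The submitters' processing notes name STAR, Salmon, DESeq2 and build rn6, without versions or roles, and strand handling is not given in the sources used here. Low values clustered at 0.81 to 1.19 normalized counts per read, but only 69.2% to 89.4% of them per library were whole multiples within 0.05 of a step, so reads were not recovered and no count test was run. Columns were matched to samples by the full library name in the description. The titles of 4 libraries, from both groups, carry another code than the description, and each exchange of codes stays within its group. The code endings used here are those of the column names.

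Differences were fitted over all 14410 genes whose mean reached 10 normalized counts, on log2(value + 1), with limma 3.58.1 (trend) in R 4.3.3, and p-values were Benjamini-Hochberg adjusted over all of them with a threshold of 0.05. Fold differences of low genes are understated on this scale. The code of the fit was run on simulated data with independent noise for each gene and library. Those data held no effect shared by the genes of a library, so that run checks only the code. The 36 genes, the lists of other genes and the tests were chosen with earlier results of these data known. Each of the 36 genes is named. Values per library are given for those past the threshold without the block and for a fixed set (Atf4, Ddit3, Trib3, Asns, Chac1, Eif2s1, Slc7a5, Ppp1r15a), and up to 3 genes of each other list by smallest adjusted p. Values per library of Atf3, Sesn2, Shmt2, Slc1a4 and Slc7a11 were added after they were seen. Fits without 0C922 and 1A922, and the third code ending (0C922 and 1A922) against 52, were also read after the data were seen. There were 23 alternatives to the comparison of labels and 20 to that of endings. Promoter windows came from RefSeq (GRCr8). Of the 36 genes, 6 had no single match.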

Additional observations from a re-analysis of the deposited data

Results flagged for a closer look

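In the untreated group 15 of the 33 genes, and in the iAs group 20, had 1 library far from the others: its gap to the nearest library, divided by the whole range of the group, was above Dixon's 95% critical value. For 1 gene taken alone, chance gives this in about 1 of 20 groups. The genes flagged in a group share 1 library, so their number cannot be held against that rate as separate draws. In each case the library was the highest and was 0C922 (untreated replicate 4) or 1A922 (iAs replicate 2). Over all 14410 genes, 1.96% and 2.21% met the criterion with that library highest.

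Among transcription factors the gap was 0.837 (untreated) and 0.861 (iAs) of the range for Atf4, 0.881 and 0.925 for Atf3, 0.976 and 0.966 for Cebpg, 0.921 for Atf5 in the untreated group only and 0.805 for Nupr1 in the iAs group only. Among feedback genes it was 0.964 and 0.929 for Chac1, 0.901 and 0.883 for Trib3, 0.921 and 0.889 for Sesn2, 0.873 and 0.793 for Ppp1r15b and, in the iAs group only, 0.731 for Ppp1r15a. Among enzymes it was 0.959 and 0.904 for Asns, 0.951 and 0.887 for Psph, 0.879 and 0.897 for Shmt2. Psat1 and Mthfd2 were past it in the iAs group only, both at 0.855, and Got1 in the untreated group only, at 0.842. Among transporters it was 0.862 and 0.911 for Slc7a1, 0.924 and 0.961 for Slc1a4, and 0.926 and 0.888 for Slc6a9. In the iAs group only it was 0.877 for Slc7a5, 0.718 for Slc3a2 and 0.856 for Slc38a2. None of the 4 genes of eIF2 and its kinases met the criterion in either group.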

How the results depend on the processing

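Of the counts of genes recomputed under alternatives, 110 stayed within 1.5 times and 19 moved. Members of the set higher in libraries labelled iAs numbered 2 with array weights, 3 with the code ending as a block, 2 with the most common ending only and 3 without 0C922 and 1A922, against 0; those lower numbered 15, 10 and 10 under the last 3, against 6. Genes called over the whole table were 2761 with a replicate block, against 4321, with 5 lower genes of the set; same-numbered libraries correlated at 0.031, -0.037, 0.008 and -0.041 in their deviations, so the numbers were not taken as a pairing. Equal totals gave 1787 higher and 2528 lower genes, and 1717 and 2685 without Ins1, against 2181 and 2140; the set then had 8 lower (Eif2ak1 and Got1 added). Leaving out each library gave 0 to 2 higher and 5 to 8 lower genes of the set, and 3423 to 4068 genes called. By ending, genes called were 160 without a trend, 692 with array weights and 44 without the group term, against 432, and the set had 13 higher without the group term, against 23; leaving out each library gave 78 to 907 genes and 18 to 24 of the set.

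None of the 6 genes called by label reversed. Among genes not called, the difference by label changed sign with equal totals (Atf3 -0.01, and -0.02 without Ins1), array weights (Asns 0.07, Slc7a1 0.03, Slc6a9 0.12), the replicate block (Slc7a1 0.04, Slc6a9 0.02) and the ending block (Asns 0.01, Slc7a1 0.02, Slc6a9 0.05). It also did with the most common ending only (Atf3 -0.07, Asns 0.05, Slc6a9 0.0022, Vldlr 0.08) and without 0C922 and 1A922 (Asns 0.03, Slc7a1 0.02, Slc6a9 0.09, Vldlr 0.02). Leaving out each library gave ranges across 0 for Atf3 (-0.49 to 0.52), Cebpg (-0.10 to 0.24), Mthfd2 (-0.14 to 0.36), Trib3 (-1.04 to 0.09), Chac1 (-1.40 to 0.14), Asns (-0.20 to 0.20), Psat1 (-0.34 to 0.21), Psph (-0.02 to 0.47), Aldh18a1 (-0.76 to 0.09), Slc7a5 (-0.29 to 0.04), Slc7a1 (-0.27 to 0.26), Slc1a4 (-0.66 to 0.07), Slc6a9 (-0.27 to 0.34), Vldlr (-0.17 to 0.06) and Eif2ak4 (-0.06 to 0.02). By ending, sign changes were near 0: Eif2ak1 0.01 and Slc1a5 0.01 with equal totals, Eif2s1 -0.0019 and Slc1a5 0.01 with quantile normalization, and Eif2s1 -0.00011, Eif2ak1 0.01, Eif2ak2 0.03 and Slc1a5 0.07 without the group term. Ranges over left-out libraries were -0.03 to 0.03 (Eif2ak1), -0.09 to 0.03 (Eif2ak2), -0.01 to 0.03 (Eif2s1), -0.18 to 0.19 (Slc1a5) and -0.14 to 0.0028 (Eif2ak4). Apart from what each alternative leaves out, the cause was not tested. The second and the third endings (0C513 and 1B513, 0C922 and 1A922) have 1 library per group, and genes of low level, such as Cth, have wide errors.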
